A study of Rattus norvegicus with 3 samples.

Results

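Voltage-gated and potassium channel genes were examined on 1 whole rat genome array each of bone marrow mesenchymal stem cells (rMSC), the osteosarcoma line COS1NR and the malignant fibrous histiocytoma (MFH) line MFH1NR. The genes were chosen by name: every probe that is not a control was named through its RefSeq accession, and a gene was taken where its rat symbol belongs to the Kcn, Scn or Cacn families of channel subunits. Of 138 such genes in the gene table, 121 had a named probe and 120 were analysed, out of 13301 genes named on the array. Cacnb4 lost its only probe to an outlier spot, and 17 genes without a named probe were not analysed here. By role the 120 genes were 82 potassium, 16 sodium and 22 calcium channel subunits.

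All 3 cell populations came from F344 rats and were grown in culture. Each sarcoma was 1 established line that carries a p53 mutation and was induced with 4-hydroxy quinolone 1-oxide, and both lines were grown in DMEM with 10% serum. The mesenchymal stem cells were taken from the marrow of the femur by their adherence to plastic. They were not sorted by surface markers, as the paper states among its limits, and were grown in the same medium with 15% serum. With 1 array per cell type no spread between cultures could be measured, so no difference below carries a test. In addition, both sarcoma arrays lay on 1 slide and the rMSC array on another, so in comparisons with rMSC the slide and the cells cannot be told apart.

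Ion channels are membrane proteins that open to let ions pass. Voltage-gated sodium and calcium channels open on depolarization, the first driving action potentials and the second letting in calcium as a messenger. Potassium channels pull the membrane back toward rest, and in cells that do not fire they set the resting potential, cell volume and the driving force for calcium entry. A channel is built from pore subunits, which conduct, and accessory subunits, which change gating or delivery to the membrane without conducting by themselves.

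Values are processed signals, the background-subtracted Cy3 intensities of the scanner software in arbitrary units, and ratios between arrays were taken after dividing each signal by the 75th percentile of its own array. This percentile was 589.1 in rMSC, 773.7 in COS1NR and 994.3 in MFH1NR, so equal raw signals are not equal levels. A probe that failed the software's call of well above background on an array has only a bound there, and its ratio is given as at least so many fold. The bound sets the bright array's scaled signal against the lowest signal well above background on the dim array (17.98 in rMSC, 29.38 in COS1NR and 30.07 in MFH1NR), or against the probe's own signal where that was higher. No spot was saturated. Replicate spots of a probe had a median log2 SD between 0.0469 and 0.0575 on the 3 arrays. A second probe of the same gene gave a log2 ratio that differed by a median of 0.281 for COS1NR over rMSC, 0.315 for MFH1NR over rMSC and 0.15 for MFH1NR over COS1NR. These differences exceeded 0.929, 1.01 and 0.593, respectively, for 1 gene in 10. Errors given with a log2 ratio are the scanner software's own error of both spots and cover neither culture nor labeling. Ratios are taken between arrays for the same probe and never between genes. Sums of scaled signals over lists of marker genes give most weight to the brightest probes.

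The labels were checked against marker genes. All 15 markers of mesenchymal stem cells were well above background in rMSC, against 12 in each line. In rMSC, 14 of 15 macrophage markers were also above background, with a summed scaled signal of 183.4 against 12.41 in COS1NR and 4.967 in MFH1NR. In COS1NR 7 of these markers were above background and in MFH1NR 6, with Cd68, Cd14 and Laptm5 among them in both lines. Lyz2, Cd163, Mrc1 and Adgre1 were among those not above background in either line. All 6 smooth muscle markers were above background in rMSC, with a sum of 146.1 against 1.8 in COS1NR and 3.934 in MFH1NR. Tagln, with a signal of 78247 in rMSC, made up most of the sum there. Of 9 osteoblast markers, 7 were above background in rMSC, 6 in COS1NR and 7 in MFH1NR, and 6 were at least 2-fold lower and none higher in COS1NR than in rMSC. Their summed scaled signal was 472.7 in rMSC, 79.82 in COS1NR and 184.6 in MFH1NR. Sparc made up most of the sum in rMSC (signal 233890) and Spp1 most of that in MFH1NR (149220). By the count of genes at least 2-fold lower, these markers ran against the label of the osteosarcoma line. Of 12 neuron markers, 6, 3 and 5 were above background in rMSC, COS1NR and MFH1NR, and Syt1, Syp and Stmn2 were at background on all 3 arrays. The part of other cell types in the channel signals of rMSC was not tested.

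By the software's call of well above background, most channel genes were dark. In rMSC 40 of the 120 channel genes were well above background (33.3%, against 69.8% of all genes named on the array). In COS1NR 33 were (27.5% against 65.8%), and in MFH1NR 39 were (32.5% against 66.8%). A total of 63 channel genes (52.5%) were at background on all 3 arrays, which held for 24.6% of all genes. Only 19 (15.8%) were above background on all 3, against 59.8% of all genes. The remaining 38 genes were seen on 1 or 2 arrays. By the software's weaker call of a positive and significant signal, 78 channel genes were detected in rMSC, 60 in COS1NR and 68 in MFH1NR. The share of all genes was not counted under that call, so channels cannot be set against all genes there. How many channel genes count as dark depends on the call.

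Detection varied among the families. All 3 analysed subunits of the Cav beta family, which sit inside the cell and carry calcium channels to the membrane, were above background in rMSC and MFH1NR, and 1 in COS1NR. Among the 24 pore subunits of voltage-gated potassium (Kv) channels, 5 were above background in rMSC, 6 in COS1NR and 8 in MFH1NR, and 16 on no array. Among the 15 inward rectifiers, which pass potassium more easily into than out of the cell, 10 were on no array. Of 11 two-pore-domain channels, the leak channels that set the resting potential, 5 were above background in rMSC, 2 in COS1NR and 3 in MFH1NR. The cardiac and epithelial potassium channel Kcnq1, the brain sodium channel Scn1a, the muscle channels Scn4a and Cacna1s, and the inward rectifier Kcnj2 were among those dark everywhere. Among the 17 genes with several probes, Cacna1b, Cacna1c, Cacna1e, Cacnb2 and Scn4b had a further probe that was dark on all 3 arrays although the first was bright on at least 1, so a dark probe does not show that a transcript was absent.

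**Figure D1:**
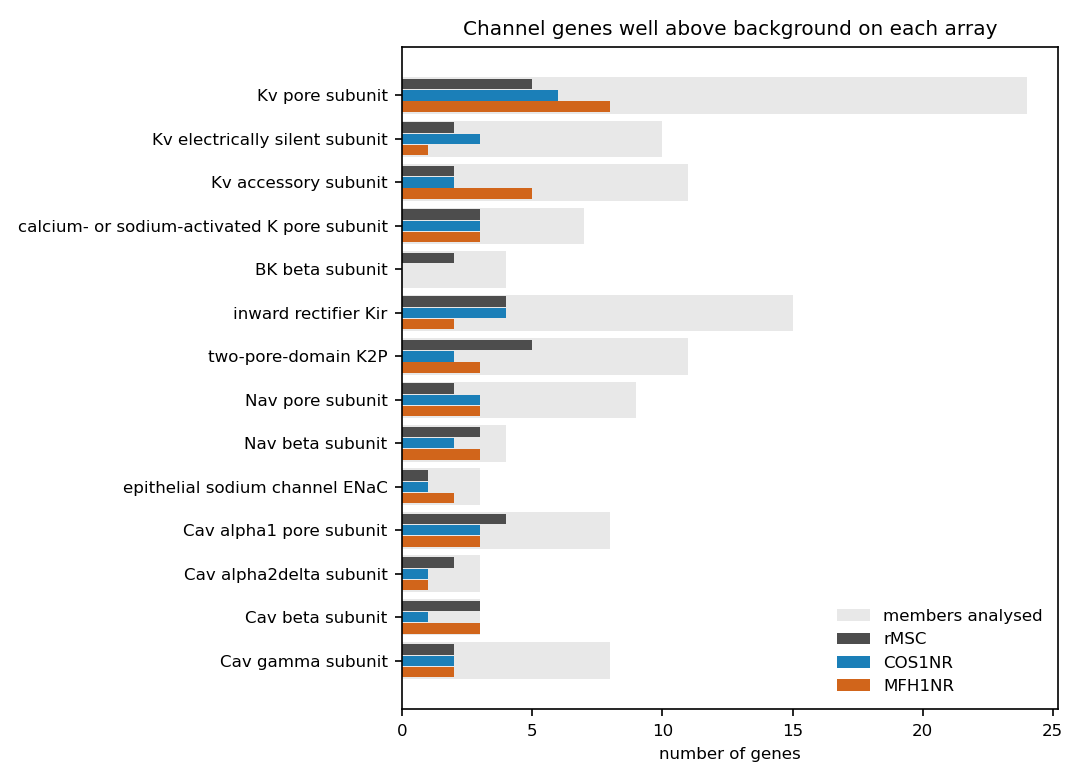
Number of channel genes (horizontal axis) with at least 1 probe well above background on the rMSC (dark grey), COS1NR (blue) and MFH1NR (orange) array, for the 14 families of subunits. The pale bar is the number of genes analysed in the family, and the Kv pore subunits had 5 in rMSC and 8 in MFH1NR while two-pore-domain channels had 5 in rMSC and 2 in COS1NR.

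Against rMSC, 10 channel genes were at least 2-fold higher in COS1NR (8.33%, against 15.1% of all genes) and 17 were at least 2-fold lower (14.2% against 14.6%). In MFH1NR 15 were higher than in rMSC (12.5% against 14.3%) and 21 were lower (17.5% against 16.0%). Without scaling of the arrays these splits were 17 higher and 15 lower in COS1NR, and 20 higher and 13 lower in MFH1NR. All genes moved the same way, to 23.8% higher and 10.8% lower in COS1NR and to 30.5% higher and 9.58% lower in MFH1NR. Both comparisons used the same rMSC array. Between the lines, 14 channel genes were at least 2-fold higher in MFH1NR than in COS1NR (11.7% against 8.8%) and 10 were lower (8.33% against 10.7%). In all, 44 channel genes were at least 2-fold apart in 1 pair of arrays or more. The share of all genes under this joint rule was not counted, so 44 cannot be called many or few. Genes that were dark everywhere could not be counted as different, and they were more frequent among channels than among all genes. Many of the differences were bounds, namely 4 of 10 and 12 of 17 for COS1NR against rMSC, 11 of 15 and 12 of 21 for MFH1NR against rMSC, and 9 of 14 and 5 of 10 between the lines. Where both arrays measured a gene, the median log2 ratio of channel genes was 0.06 for COS1NR over rMSC (24 genes), -0.21 for MFH1NR over rMSC (25 genes) and -0.18 for MFH1NR over COS1NR (25 genes), against 0.18, 0.07 and -0.09 over all genes. The medians for MFH1NR over rMSC and for MFH1NR over COS1NR became 0.55 and 0.18 without scaling, and that for COS1NR over rMSC became -0.16 with another background correction (normexp on the median spot signal).

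**Figure D2:**
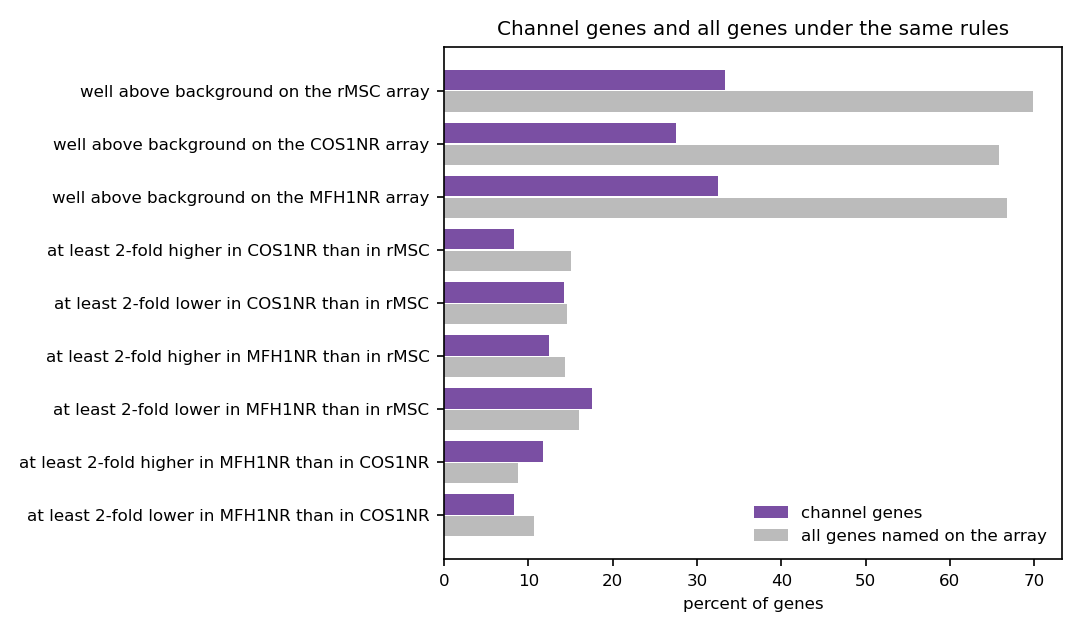
Percent of genes (horizontal axis) that met each rule on the vertical axis, for the 120 channel genes (purple) and for all 13301 genes named on the array (grey). Channel genes were above background about as often in rMSC (33.3%) as in MFH1NR (32.5%), far below the 66.8% to 69.8% of all genes there, while their shares 2-fold apart lay between 8.33% and 17.5%.

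Of the 120 genes, 13 were at least 2-fold higher in rMSC than in both lines (10.8% against 9.73% of all genes), and 7 of these were potassium channel subunits. Kcnk2 encodes a two-pore leak channel opened by stretch and lipids. Its signal was 5031 in rMSC, 5.92 in COS1NR and 6.05 in MFH1NR, with both lines at background. Its level lay at least 225-fold (COS1NR) and at least 282-fold (MFH1NR) below that of rMSC. Kcnj8, the pore of the ATP-sensitive potassium channel of vessels, had a signal of 4782 in rMSC, 7.06 in COS1NR and 7.15 in MFH1NR. It was likewise at background in both lines, at least 214-fold (COS1NR) and at least 268-fold (MFH1NR) below rMSC. The sulfonylurea receptor Abcc9, which joins such pores as their regulatory subunit, is no channel gene by the rule and had the same order. Its signal was 1426 in rMSC, 7.29 in COS1NR and 7.19 in MFH1NR, at least 63.7-fold and at least 80.0-fold lower in the lines. The other pore of this channel type, Kcnj11, and its receptor Abcc8 were at background on all 3 arrays.

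The promoters of Kcnk2 and Kcnj8, bright in rMSC alone, are shown with those of Scn11a and Kcna4, which were bright in MFH1NR alone. The sequences are those of RefSeq on the GRCr8 assembly, from 250 bases before to 50 after the start of the gene, 5′ to 3′ on the gene's strand, and each CG, the dinucleotide that can be methylated, is in capitals. They were chosen after the signals were seen. Kcnk2 lies on the minus strand at chr13:103494637-103494936, Kcnj8 on the minus strand at chr4:177246499-177246798, Scn11a on the minus strand at chr8:128444669-128444968 and Kcna4 on the plus strand at chr3:114215086-114215385.
Kcnk2: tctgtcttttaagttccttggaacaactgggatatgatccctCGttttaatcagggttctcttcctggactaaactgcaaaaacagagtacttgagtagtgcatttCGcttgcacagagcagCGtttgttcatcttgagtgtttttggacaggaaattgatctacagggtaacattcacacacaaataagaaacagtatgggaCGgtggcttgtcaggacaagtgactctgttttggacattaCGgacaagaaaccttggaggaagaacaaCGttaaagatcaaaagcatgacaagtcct
Kcnj8: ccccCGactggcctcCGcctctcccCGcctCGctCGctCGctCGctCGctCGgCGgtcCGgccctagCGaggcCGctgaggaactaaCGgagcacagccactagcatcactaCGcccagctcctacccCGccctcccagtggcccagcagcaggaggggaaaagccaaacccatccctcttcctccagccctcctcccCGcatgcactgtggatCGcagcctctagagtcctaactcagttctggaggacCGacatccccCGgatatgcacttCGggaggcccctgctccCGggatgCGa
Scn11a: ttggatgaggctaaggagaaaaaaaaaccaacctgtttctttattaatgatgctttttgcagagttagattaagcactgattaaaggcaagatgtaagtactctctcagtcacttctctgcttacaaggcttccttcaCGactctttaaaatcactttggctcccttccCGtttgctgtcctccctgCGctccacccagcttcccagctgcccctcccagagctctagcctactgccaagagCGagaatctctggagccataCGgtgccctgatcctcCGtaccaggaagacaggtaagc
Kcna4: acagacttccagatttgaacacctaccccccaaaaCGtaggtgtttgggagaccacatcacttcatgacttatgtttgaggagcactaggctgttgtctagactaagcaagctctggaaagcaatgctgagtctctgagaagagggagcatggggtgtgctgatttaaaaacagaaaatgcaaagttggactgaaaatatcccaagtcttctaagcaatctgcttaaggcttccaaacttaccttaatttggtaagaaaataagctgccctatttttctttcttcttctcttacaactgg
The Kcnk2 window held 6 CG, the Kcnj8 window 23, the Scn11a window 6 and the Kcna4 window 1. Of 27457 promoters of the table, 58.0% held at least 6 CG, 21.1% at least 23 and 94.8% at least 1. The promoters shown here thus ranged from rich to nearly free of CG. The table held a promoter for 83 of the 120 channel genes (69.2%). No comparison over the channel genes was made, and methylation was not measured.

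Other leak channels differed in their order. Kcnk12, a two-pore channel related to Kcnk13 that is largely kept inside the cell, had a signal of 1329 in rMSC, 16.0 in COS1NR and 64.1 in MFH1NR. It was at background in COS1NR, at least 59.4-fold lower there, and 35.0-fold lower in MFH1NR (log2 ratio -5.13 ± 0.25). Its relative Kcnk13 followed another order, with 123 in rMSC, 6.66 in COS1NR and 240.6 in MFH1NR. COS1NR alone was at background, at least 5.51-fold below rMSC and at least 6.37-fold below MFH1NR, while MFH1NR and rMSC were 1.16-fold apart. Kcnk6 was measured on every array and by 2 probes. The brighter gave 2749.7 in rMSC, 949 in COS1NR and 3421 in MFH1NR, so that COS1NR was 3.81-fold below rMSC and 2.81-fold below MFH1NR. The second probe gave 4.30-fold and 2.52-fold for the same pairs. Kcnk5, a leak channel opened by alkaline pH, was at background in MFH1NR instead. Its signal was 149.7 in rMSC, 216 in COS1NR and 19.7 in MFH1NR, so that MFH1NR was at least 8.40-fold below rMSC and at least 9.23-fold below COS1NR.

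Calcium-activated potassium channels moved in opposite directions within their group. Kcnn4, the intermediate-conductance channel of blood cells and dividing fibroblasts, had a signal of 1402 in rMSC, 119 in COS1NR and 195 in MFH1NR. All 3 arrays measured it, and it was 15.5-fold lower in COS1NR (-3.95 ± 0.22) and 12.1-fold lower in MFH1NR (-3.60 ± 0.21). The small-conductance channel Kcnn3, by contrast, was at background in rMSC, with 4.06, and had 488 in COS1NR and 83.1 in MFH1NR. COS1NR was at least 20.7-fold and MFH1NR at least 2.74-fold above rMSC, and MFH1NR was 7.55-fold below COS1NR (-2.92 ± 0.23). Its relative Kcnn1 was 3.51-fold higher in COS1NR and 3.09-fold higher in MFH1NR than in rMSC, with signals of 101, 114 and 21.9, respectively. With normexp background correction Kcnn1 and the excess of Kcnn3 in MFH1NR over rMSC fell below 2-fold. Of the large-conductance channel, the pore gene Kcnma1 was at background by both of its probes on all arrays, whereas 2 of its 4 beta subunits were above background in rMSC alone. Kcnmb1, the beta subunit of smooth muscle, had 73.4 in rMSC against 5.95 and 6.34 in the lines, at least 3.28-fold and at least 4.12-fold lower. Kcnmb4 had 50.4 against 8.15 in either line, at least 2.25-fold and at least 2.83-fold lower, and both fell under 2-fold without scaling. The second Kcnmb1 probe gave bounds of at least 1.53-fold and at least 1.92-fold. The summed scaled signals of the macrophage and smooth muscle markers moved with these genes toward rMSC, as given above, and their part was not tested.

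Among voltage-gated potassium channels the lines differed from each other as well as from rMSC. Kcnh1, a channel of brain that is also found in many tumors, had a signal of 102 in rMSC, 1664 in COS1NR and 359 in MFH1NR. COS1NR stood highest, 12.4-fold above rMSC (3.63 ± 0.21) and 5.96-fold above MFH1NR (-2.58 ± 0.21 for MFH1NR over COS1NR). MFH1NR was 2.08-fold above rMSC, a difference that fell under 2-fold with normexp correction. Its relative Kcnh2, the channel that repolarizes the heart, was at background in rMSC (4.68) and COS1NR (6.17) and had 464 in MFH1NR. It was at least 15.3-fold higher in MFH1NR than in rMSC and at least 12.3-fold higher than in COS1NR. Kcne2, a small accessory subunit that can join Kcnh2, had 3.86 in rMSC, 46.8 in COS1NR and 196 in MFH1NR. It was at least 6.45-fold higher in MFH1NR than in rMSC and 3.26-fold higher than in COS1NR, and the last fell under 2-fold with normexp correction.

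Kcna4, a rapidly inactivating channel, was seen in MFH1NR alone, with 590.2 against 4.10 in rMSC and 6.14 in COS1NR. MFH1NR was at least 19.4-fold and at least 15.6-fold higher. Kcnip4, a calcium-binding protein that joins channels of the Kcnd type, had 559 in MFH1NR against 14.6 and 6.07, at least 18.4-fold and at least 14.8-fold higher. Kcnd1, the member of that type seen on all 3 arrays, went the other way. Its signal was 1073 in rMSC, 1956 in COS1NR and 741 in MFH1NR, 2.44-fold lower in MFH1NR than in rMSC and 3.39-fold lower than in COS1NR, the first of which fell under 2-fold without scaling. Kcnip3, another protein of the Kcnip group that is also a transcriptional repressor, was lowest in COS1NR, with 174, 73.4 and 299 in the same order of arrays.

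Kcns3, a silent subunit that does not conduct alone, had 258 in rMSC and was at background in both lines, at least 11.5-fold (COS1NR) and at least 14.5-fold (MFH1NR) below rMSC. Among the inward rectifiers, Kcnj12, a strong rectifier of muscle, belonged to COS1NR. Its signal was 24.3 in rMSC, 431 in COS1NR and 6.11 in MFH1NR, so that COS1NR was 13.5-fold above rMSC and at least 18.4-fold above MFH1NR.

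**Figure D3:**
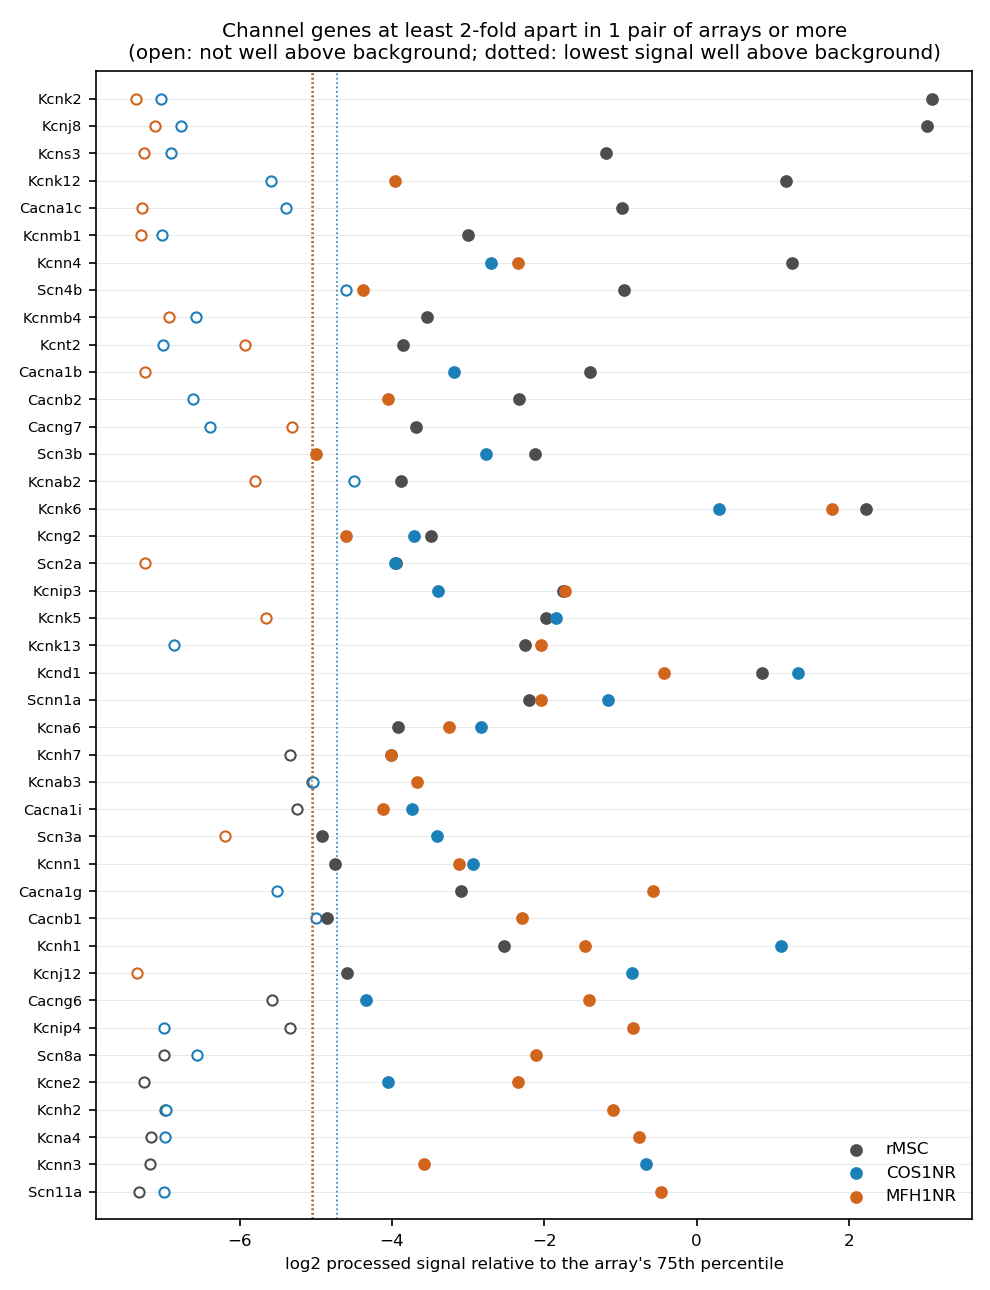
Log2 processed signal relative to the 75th percentile of the array (horizontal axis) of 41 of the 44 channel genes at least 2-fold apart in 1 pair of arrays or more, ordered from those highest in rMSC at the top to those highest in a sarcoma line at the bottom. Filled points were well above background, open points were not, and dotted lines mark the lowest signal well above background on each array, so that Kcnk2 and Kcnj8 stand far right in rMSC with both lines open, and Scn11a and Kcna4 are filled in MFH1NR alone.

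Sodium channel pore subunits differed between the lines. Scn11a, a channel of pain-sensing neurons, had 3.66 in rMSC, 6.09 in COS1NR and 722 in MFH1NR. Both other arrays were at background, and MFH1NR was at least 23.8-fold and at least 19.1-fold higher. Scn8a, a channel of brain neurons, had 229.8 in MFH1NR against 4.63 in rMSC and 8.17 in COS1NR, at least 7.57-fold and at least 6.09-fold higher.

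A further pair of pore genes was at background in MFH1NR. Scn3a had 19.5 in rMSC, 72.8 in COS1NR and 13.6 in MFH1NR, so that COS1NR was 2.84-fold above rMSC and at least 3.11-fold above MFH1NR, the first of which fell under 2-fold with normexp correction. Scn2a had 38.2, 49.8 and 6.57, at background in MFH1NR alone, at least 2.14-fold below rMSC and, by its second probe, at least 1.73-fold. This difference also fell under 2-fold with median scaling or normexp correction. Scn10a, Scn1a, Scn4a and Scn9a were at background everywhere. Beta subunits steer gating and cell adhesion. Scn4b had 305 in rMSC, 31.9 in COS1NR and 47.5 in MFH1NR, at least 12.6-fold (COS1NR) and 10.8-fold (MFH1NR) below rMSC by 1 of its 2 probes. Scn3b had 136, 114 and 31.0, so that MFH1NR was 7.40-fold below rMSC and 4.72-fold below COS1NR, and COS1NR was 1.57-fold below rMSC. Scnn1a, the alpha subunit of the epithelial sodium channel, was measured on all arrays, and COS1NR was 2.05-fold above rMSC by 1 of its 2 probes, with signals of 344 and 128. The other probe was above background in rMSC alone, with 20.2, and normexp correction took the difference under 2-fold.

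Of the 22 calcium channel subunits, 11 were above background in rMSC, 7 in COS1NR and 9 in MFH1NR. Cacna2d1, the alpha2delta subunit that binds gabapentin, had 11844 in rMSC, 9011 in COS1NR and 13088 in MFH1NR, and no pair was 2-fold apart. Cacnb3 had 4209, 6753 and 13396, at most 1.89-fold apart after scaling. Of the pores, the L-type channel Cacna1c, the calcium channel of heart and smooth muscle, had 300.0 in rMSC, 18.4 in COS1NR and 6.37 in MFH1NR. It was at background in both lines, at least 13.4-fold and at least 16.8-fold lower, by 1 of its 2 probes. The N-type channel Cacna1b, which triggers transmitter release, had 224, 84.7 and 6.58, 3.47-fold (COS1NR) and at least 12.6-fold (MFH1NR) below rMSC, and its second probe was dark.

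The T-type channels, which open at small depolarizations, behaved differently. Cacna1g had 68.7 in rMSC, 16.9 in COS1NR and 667 in MFH1NR. COS1NR was at background, at least 3.07-fold below rMSC, while MFH1NR was 5.75-fold above rMSC (2.52 ± 0.22) and at least 17.7-fold above COS1NR. It was the only channel gene that was 2-fold or more below rMSC in one line and 2-fold or more above it in the other. Cacna1i was at background in rMSC (15.5) and had 57.8 in COS1NR and 57.5 in MFH1NR, at least 2.45-fold above rMSC in COS1NR, which fell under 2-fold with normexp correction. Cacnb1 and Cacng6 were highest in MFH1NR. Cacnb1 had 20.4, 24.3 and 203, which was 5.89-fold above rMSC and at least 5.38-fold above COS1NR. Cacng6, a gamma subunit, had 12.3, 38.0 and 374, at least 12.3-fold above rMSC and 7.66-fold above COS1NR (2.94 ± 0.31). Cacnb2 went the other way, with 116, 7.89 and 59.9, at least 5.21-fold below rMSC in COS1NR and 3.28-fold below in MFH1NR, by 1 of its 2 probes, and the difference in MFH1NR fell under 2-fold without scaling.

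The remaining differences were small and mostly near background. In rMSC Cacng7 had 45.9 and Kcnt2, a sodium-activated channel, had 40.8, with both lines at background and bounds of at least 2.57-fold and at least 2.29-fold in MFH1NR. Kcnab2 was likewise above background in rMSC alone, at least 2.25-fold above MFH1NR. The silent subunit Kcng2 was 2.16-fold lower in MFH1NR than in rMSC. Median scaling took each of these 4 genes under 2-fold in at least 1 comparison. Kcnab3, a beta subunit of Kv channels, had 78.0 in MFH1NR and was at background elsewhere, at least 2.57-fold above rMSC, which normexp correction also took under 2-fold. Kcng1, Kcng4 and Kcnj4 were above background in COS1NR alone, Kcne4 and Scnn1b in MFH1NR alone and Cacna2d3 in rMSC alone, and none of these 6 reached 2-fold by its bound.

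Taking one array against both others, 11 channel genes were at least 2-fold higher in MFH1NR (9.17% against 4.53% of all genes), among them Cacna1g, Cacnb1, Cacng6, Kcna4, Kcnab3, Kcne2, Kcnh2, Kcnip4, Scn11a and Scn8a. In COS1NR 4 were (3.33% against 4.53%), namely Kcnh1, Kcnj12, Kcnn3 and Scn3a. Most ratios behind the 11 genes of MFH1NR were bounds. With normexp correction Kcne2 and Kcnab3 each fell under 2-fold in at least 1 of these comparisons. In the other direction, 6 were at least 2-fold lower in MFH1NR than on both other arrays (5.0% against 5.61%), 4 in COS1NR (3.33% against 4.21%) and 5 in rMSC (4.17% against 8.1%). Beside these values, 5 of 12 neuron markers were above background in MFH1NR, namely Nefh, Snap25, Map2, Tubb3 and Gap43, with a summed scaled signal of 4.74 against 3.119 in rMSC and 0.4677 in COS1NR. Nefh, with 4222 in MFH1NR against 513 in rMSC, made up most of the sum in MFH1NR. Of the others, Tubb3 went the opposite way, with 78.4 in MFH1NR against 1116 in rMSC (log2 ratio -4.59), and Syt1, Syp and Stmn2 were at background. In all, 2 neuron markers were at least 2-fold higher and 2 lower in MFH1NR than in rMSC. Of 14 markers of skeletal and cardiac muscle, 6 were above background in rMSC, 6 in COS1NR and 7 in MFH1NR, with summed scaled signals of 24.75, 28.57 and 23.56. Actc1, with signals of 12478, 19707 and 19852, made up most of each sum. At least 2-fold, 3 of the 14 markers were higher and 1 lower in MFH1NR than in rMSC, and 3 higher and 1 lower than in COS1NR. Des was the lower one, with 1471 in rMSC, 1048 in COS1NR and 196 in MFH1NR. Acta1 had 292, 902 and 2496 in the same order, Myog was above background in MFH1NR alone, with 58.7, and Myod1, Ckm, Myh6 and Myh7 were at background on all 3 arrays. Their part was not tested. Both lines lay on the same slide, so the slide does not separate them.

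**Figure D4:**
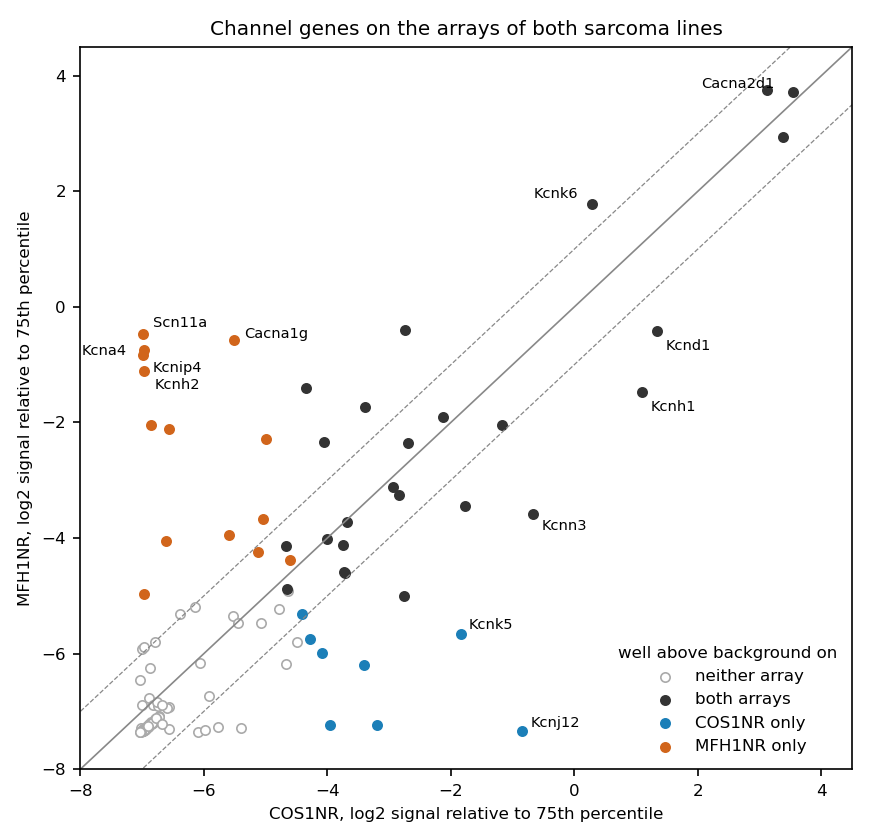
Log2 processed signal of the 120 channel genes relative to the 75th percentile in COS1NR (horizontal axis) and MFH1NR (vertical axis), with the line of equality and dashed lines at 2-fold. Colors show on which of both arrays a gene was well above background. Scn11a, Kcna4, Kcnip4 and Kcnh2 lie at the left edge, above background in MFH1NR alone, and Kcnj12 lies at the lower edge, above background in COS1NR alone.

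Genes that work with channels were compared by lists of the same kind. Of 32 partners and regulators of channels, 7 were at least 2-fold lower in COS1NR than in rMSC (21.9%, against 14.6% of all genes) and 8 in MFH1NR (25.0% against 16.0%). In each line 2 were higher (6.25%, against 15.1% of all genes in COS1NR and 14.3% in MFH1NR). Their median log2 ratio where measured on both arrays was -0.38 in COS1NR and -0.41 in MFH1NR, against 0.18 and 0.07 over all genes. Cask, a scaffold at synapses and membranes, had 1216 in rMSC, 1227 in COS1NR and 6.16 in MFH1NR, at least 68.2-fold below rMSC in MFH1NR. Sgk1, a kinase that raises the number of sodium channels at the surface, had 1010.5, 320 and 6008, 4.15-fold lower in COS1NR and 3.52-fold higher in MFH1NR than in rMSC. Ank3, an anchor of sodium channels, had 227, 65.4 and 8.20, 4.57-fold (COS1NR) and at least 12.8-fold (MFH1NR) below rMSC. Of 68 pumps, exchangers and other channels, 21 were lower in COS1NR than in rMSC (30.9%, against 14.6% of all genes) and 19 in MFH1NR (27.9% against 16.0%). The number higher was 7 in COS1NR (10.3% against 15.1%) and 5 in MFH1NR (7.35% against 14.3%). Their median log2 ratios were -0.59 and -0.39, against the same 0.18 and 0.07. Among them Orai2, a pore of store-operated calcium entry, had 2738 in rMSC, 46.2 in COS1NR and 3550 in MFH1NR, so that COS1NR was 77.9-fold below rMSC and 59.8-fold below MFH1NR. Trpv4, a cation channel opened by swelling and warmth, had 5767, 267 and 592, 28.3-fold lower in COS1NR and 16.4-fold lower in MFH1NR than in rMSC. Fxyd6, a modulator of the sodium pump, had 4231, 40.7 and 6.12, 136-fold (COS1NR) and at least 237-fold (MFH1NR) below rMSC. The sums of the macrophage and smooth muscle markers given above were also highest in rMSC, and their part in both lists was not tested. These lists were drawn up from textbook roles with earlier results of these data known, and the counts are descriptions.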

How the data were processed

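RNA of rMSC, COS1NR and MFH1NR was measured on 1 Agilent 1-colour whole rat genome array each. Kits for RNA isolation and labeling differ between the labels and the methods. Per the file headers, the deposited intensities are the authors' output of Agilent Feature Extraction 10.5.1.1 (the submitters' processing notes name 9.1), background-subtracted, detrended and not scaled between arrays. Deposited table values of the series equalled them within 1 ppm on 3 of 3 arrays. Outlier spots (187 to 217 per array) were left out, spots of a probe were averaged on the log2 scale, and 40816 of 41012 probes were kept. RefSeq accessions named 16745 probes for 13301 genes. Array annotation was made on an earlier build, so probes carry no coordinates. Each log2 signal was taken relative to the array's 75th percentile, and the probe with the highest mean log2 signal stood for a gene. A gene was above background if any probe was. A ratio needed a probe well above background on at least 1 array, and genes were called at 2-fold. The 40 channel genes with the largest ratios and the 5 of highest signal on each array were to be named, with the 5 largest ratios of each list. The genes and lists were chosen with earlier results of these data known. Alternatives were no scaling, other scalings, normexp (offset 50, limma 3.58.1), other probe choices, dim-probe filters and thresholds. Number of arrays limits the precision. Some genes of the set entered every count but are not reported here by name. Calls were tested on simulated data. Python 3.11.15, pandas 2.3.3 and R 4.3.3 were used.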

Additional observations from a re-analysis of the deposited data

Results flagged for a closer look

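Cacna1g, a T-type calcium channel pore, moved in opposite directions in the lines. Its log2 ratio to rMSC was -1.62 in COS1NR, a bound since COS1NR was at background, and 2.52 in MFH1NR. It is set apart for this reason alone. With 1 array per cell type the difference was not tested, and both ratios share the rMSC array.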

How the results depend on the processing

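No count or median changed with the series table, and no count moved by over 1.5 times with median scaling, quantile normalization, the 75th percentile over probes above background on all arrays, the mean of all probes or outlier spots kept. Under these the median for COS1NR over rMSC lay between -0.08 and 0.22, that for MFH1NR over rMSC between -0.52 and 0.01 and that for MFH1NR over COS1NR between -0.18 and -0.09. Without scaling, which moved the median log2 ratio of all genes to 0.57 (COS1NR over rMSC), 0.83 (MFH1NR over rMSC) and 0.27 (MFH1NR over COS1NR), 17 channel genes were higher in COS1NR and 13 lower in MFH1NR than in rMSC, and the channel medians were 0.46, 0.55 and 0.18. With normexp correction 3 were higher in COS1NR than in rMSC (beside 10.7% of all genes), and with a 3-fold threshold 5 (beside 7.12%). With the second-brightest probe 13 were lower in MFH1NR than in rMSC, beside 15.6% of all genes. The channel median of MFH1NR over COS1NR was then -0.0159 and that of COS1NR over rMSC was -0.21. With no filter on dim probes 22 were higher in COS1NR than in rMSC and 18 lower in MFH1NR than in COS1NR. All genes then had 18.6% higher and 13.9% lower in the same comparisons. Counting only probes above background on both arrays left 6 higher and 5 lower in COS1NR than in rMSC. In MFH1NR it left 4 and 9 against rMSC, and 5 and 5 against COS1NR. Among all genes, 13.1% were then higher and 9.98% lower in COS1NR than in rMSC. For MFH1NR against rMSC 12.0% of all genes were higher and a smaller share lower, and against COS1NR 6.07% were higher and 7.46% lower. By the software's weaker call of a positive and significant signal, 78, 60 and 68 channel genes were detected in rMSC, COS1NR and MFH1NR. The share of all genes was not counted under that call. Of 87 ratios of single genes past 2-fold, 21 fell under it with normexp and 21 lay under 3-fold, 11 fell without scaling, and no alternative reversed one. The causes were not tested. No paired analysis was possible because each cell type had 1 array, and no array could be left out. Signal over background limits every ratio that is a bound.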
